A study of Oryza sativa Japonica Group with 74 samples.

Results

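The 100 genes described here are those that stood highest in short days relative to long days around the whole day in wild-type rice. Of 37849 genes in the deposited tables, 17004 had a mean of at least 5 TPM (transcript reads scaled to transcript length and library size) over the wild-type groups. For each of them the log2 ratio of short-day over long-day TPM, with 1 TPM added to both, was taken at 6 times of day, and genes were ranked by the smallest of the 6. That smallest ratio was above 0 for 644 genes, and the 100 highest were kept. The genes were thus chosen by their wild-type short-day and long-day TPM, which are given below as a description, while comparisons within the mutants rest on libraries that the choice did not use.

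Rice flowers sooner under short days, and its clock and its light receptors both take part in measuring the day. The evening complex, built from ELF3, ELF4 and LUX proteins, is a part of the clock that represses other genes around dusk, and phytochrome B is a red light receptor. Among processes tied to light and the clock in leaves is nitrate assimilation: nitrate reductase makes nitrite, nitrite reductase (NiR) turns it into ammonium in the plastid, and glutamine synthetase and glutamate synthase build the ammonium into amino acids.

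RNA was sequenced from plants labelled as whole and 21 days old, grown with 10 h of light (short days, SD) or 14 h of light (long days, LD) and sampled at hours after lights on (ZT). The mutants were OsphyB-/- (called phyB), Oself3-1 -/- Oself3-2 -/- (elf3-1 elf3-2), which lacks both ELF3 genes by its label, and OsLUX-/- (lux), and they are set beside the wild type (WT), cultivar Nipponbare. The phyB and elf3-1 elf3-2 groups cover SD and LD at ZT6, ZT14 and ZT18 with 18 and 17 libraries, lux covers ZT14 SD alone with 3, and WT covers SD and LD at ZT2, ZT6, ZT10, ZT14, ZT18 and ZT24 with 36. The labels name replicates but not whether they came from separate plants or pools. The p-values thus rest on the spread between libraries, estimated over all groups of a fit, and not on a known spread between plants.

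Of the 74 libraries, 17 are used only where the text says so, because earlier results of these data placed them away from their labels. Over the 3000 most variable genes, 16 of these 17 lay nearest to another group than their own, 11 of them to a group of another genotype, while all 57 others lay nearest to their own group. With these libraries out, every group at ZT2, ZT6, ZT10, ZT14 and ZT24 holds 2 libraries, apart from lux with 3, and every group at ZT18 holds 3. Library totals ran from 25.7 to 74.1 M counts. The mutated genes were still read: PHYB gave 20.6 to 49.9 TPM in the kept phyB libraries against 23.4 to 89.2 TPM in WT at the same times, ELF3-1 gave 29.8 to 67.4 TPM in elf3-1 elf3-2 against 60.1 to 124 TPM in WT, ELF3-2 10.7 to 62.8 TPM against 5.01 to 72.3 TPM, and LUX 46.7 to 55.7 TPM in lux against 64.9 to 75.2 TPM in WT at ZT14 SD. The root marker RCc3 was at 0 TPM in every library but those of lux, although the label reads whole plants.

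In WT the 100 genes differed most between SD and LD at ZT14 and least at ZT10. Their median log2 ratio of SD over LD was 1.42 at ZT2, 1.34 at ZT6, 0.74 at ZT10, 1.92 at ZT14, 1.03 at ZT18 and 1.40 at ZT24, while the median over all 17004 genes lay between -0.16 and -0.02 at these times. The smallest ratio of a gene fell at ZT10 for 54 of the 100 genes. At ZT10 the short-day lights go off, and at ZT14 the long-day lights go off. Over the 6 times the median ratio of a gene, on the scale with 1 TPM added, ran from 1.47-fold to 24.8-fold with a median of 2.36-fold.

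**Figure D1:**
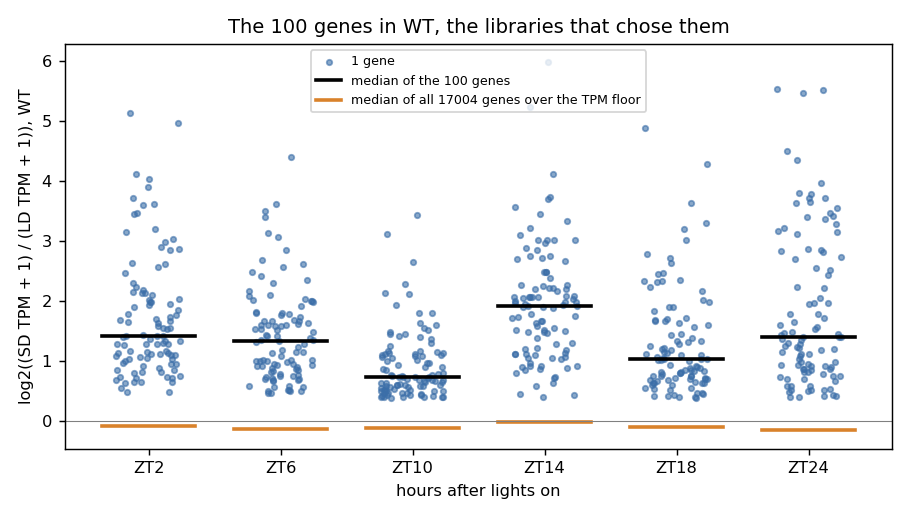
Log2 ratio of SD over LD mean TPM, with 1 TPM added, in WT at each time for the 100 genes (points, spread sideways for sight), with their median (black bar) and the median of all 17004 genes over the TPM floor (orange bar). These values chose the genes; the black bar is lowest at ZT10 (0.74) and highest at ZT14 (1.92).

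The genes ran over a wide range of abundance. Their mean over the WT groups lay between 5.39 and 1028 TPM with a median of 22.4 TPM, against 25.3 TPM for all genes over the floor. Above 100 TPM stood 16 of them, and 26 stood below 10 TPM. They lay on all 12 chromosomes, and in 7 pairs they were neighbours with at most 4 genes between them, among them NiR (Os01g0357100) and Os01g0357500 with 3 genes between. The genes just inside the limit of 100 were Os09g0361500 (smallest log2 ratio 0.393), APX8 (Os02g0553200; 0.390) and Os05g0390932 (0.383), and those just outside were Os06g0329350 (0.383), Os09g0517900 (0.380) and Os06g0610800 (0.380), so the limit falls in a dense stretch of ranks.

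The time of the highest group mean was set beside that of all genes over the floor. In SD it fell at ZT24 for 37 of the 100 genes, against 19.3% of all genes, and at ZT14 for 30, against 31.5%. In LD it fell at ZT18 for 45, against 33.5% of all genes, at ZT10 for 17, against 12.8%, at ZT24 for 15, against 15.7%, and at ZT14 for 5, against 23.0%. The time of the highest mean was the same in SD and LD for 23 of the 100 genes, against 38.0% of all genes over the floor. The ratio of the highest to the lowest mean over the day had a median of 3.82 in SD and 3.81 in LD, against 2.29 and 1.94 over all genes.

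**Figure D2:**
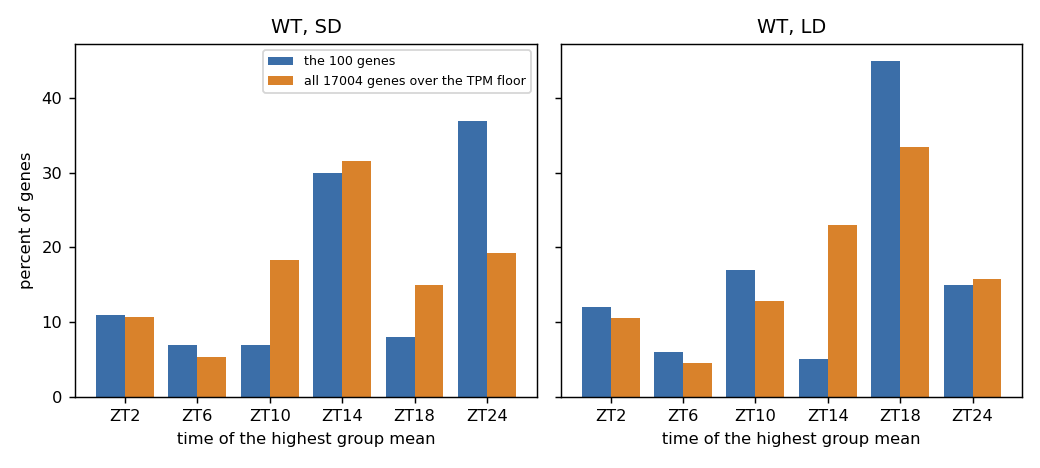
Percent of genes whose highest WT group mean fell at each of the 6 times, in SD (left) and LD (right), for the 100 genes (blue) and for all 17004 genes over the TPM floor (orange). In SD 37 of the 100 genes were highest at ZT24, and in LD 45 were highest at ZT18.

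Os01g0860601, the gene of highest rank, had 87.3 and 92.9 TPM in WT SD at ZT14 against 1.46 and 1.40 TPM in WT LD, and 133 and 154 TPM in SD at ZT24 against 2.18 and 2.38 TPM in LD. Os12g0438600, the next, had 95.9 and 113 TPM in SD at ZT14 against 0.721 and 0.621 TPM in LD. In neither gene did an SD library come near an LD library at these times. The deposited tables and the gene table used here give no name for either.

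NiR, the third, was the most abundant of the 10 genes of highest rank. It had 663 and 611 TPM in SD at ZT2 against 114 and 115 TPM in LD, 943 and 1102 TPM in SD at ZT14 against 68.3 and 86.5 TPM in LD, and 840, 802 and 827 TPM in SD at ZT18 against 110, 71.2 and 120 TPM in LD. At ZT24 it reached 1111 and 1223 TPM in SD, against 44.7 and 56.96 TPM in LD. In SD it thus ran through the night at a high level, while in LD its highest mean fell at ZT6 (137 TPM).

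The other 7 genes of the first 10, each known here by its identifier, were Os02g0765900, Os04g0659300, Os03g0609500, Os02g0102300, Os05g0247100, Os01g0357500 and Os01g0631200, with median WT ratios between 3.21-fold and 8.83-fold. Os05g0247100 was abundant, with a WT mean of 305 TPM, and the others had means between 8.82 and 23.0 TPM. Of these 7, 4 were highest in SD at ZT24, 2 at ZT14 and 1 at ZT18.

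Under their labels, the WT libraries that the choice left out did not all follow the pattern. In replicate 1, 84 of the 100 genes were higher in SD at ZT6 and 90 at ZT14, against 34.0% and 59.7% of all genes over the floor, but 12 were at ZT10, against 68.0% of all genes. In replicate 3, 53 were higher in SD at ZT2 and 12 at ZT24, against 45.2% and 71.2% of all genes. NiR, for example, had 110 TPM in the left-out SD library at ZT10 and 599 TPM in the left-out LD library. At ZT10 the left-out SD library lay nearest to WT ZT10 LD and the left-out LD library to WT ZT6 SD. At ZT24 the SD one lay nearest to WT ZT24 LD and the LD one to WT ZT2 SD. Both at ZT2 lay nearest to WT ZT2 LD, and those at ZT6 and ZT14 lay nearest to phyB of the same time and day length. These counts by label thus cannot show whether other WT libraries follow the pattern.

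In the mutants most of the 100 genes were again higher in SD. In phyB 82 of 100 rose in SD on the average of the 3 times and 1 fell, and in elf3-1 elf3-2 92 rose and 0 fell (edgeR quasi-likelihood test, adjusted p below 0.05 over 28905 genes). Over all genes 16.7% were called higher and 17.1% lower in phyB, and 21.8% higher and 20.9% lower in elf3-1 elf3-2. The median log2 change of the 100 was 0.83 in phyB and 1.18 in elf3-1 elf3-2, against 0.00 over all genes tested in each. In elf3-1 elf3-2, 0 of the 100 were also lower at an unadjusted p below 0.05, by DESeq2 or by limma. With all 74 libraries under their labels, 60 genes passed as higher in phyB and 52 in elf3-1 elf3-2, against 9.97% and 8.75% of all genes.

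By time, the count in phyB was 41 genes higher in SD at ZT6 (3.74% of all genes), 52 at ZT14 (17.8%) and 73 at ZT18 (14.4%), with medians of 0.73, 0.75 and 1.01. In elf3-1 elf3-2 it was 54 at ZT6 (9.15%), 81 at ZT14 (20.0%) and 81 at ZT18 (19.2%), with medians of 0.75, 1.51 and 1.15. Lower in SD were 10 genes in phyB at ZT14, against 16.3% of all genes, and 0 in the other 5 conditions (3.85% of all genes lower in phyB at ZT6 and 14.1% at ZT18, and 7.51%, 19.5% and 18.1% in elf3-1 elf3-2 at ZT6, ZT14 and ZT18), where at most 1 of the 100 was lower at an unadjusted p below 0.05 in the same edgeR fit. In those 5 conditions DESeq2 and limma also called 0 lower after adjustment (at most 2 by limma at an unadjusted p below 0.05), while an edgeR fit of the compared groups alone called 1, Os06g0106800, in phyB at ZT6. That gene is named after its values were seen. At ZT6 and ZT14 the counts rest on 2 libraries a group, and leaving out a replicate leaves 1 in each, whose spread is then taken from the other groups. So fitted, leaving out replicate 2 or 3 left 9 genes at ZT6 and 33 to 36 at ZT14 in phyB and 31 to 45 at ZT6 in elf3-1 elf3-2. At ZT6 a fit of the compared groups alone left 0 in elf3-1 elf3-2 (49 at an unadjusted p below 0.05). Under all 74 labels the counts in phyB were 0 at ZT6, 35 at ZT14 and 21 at ZT18 (0.0%, 10.5% and 3.36% of all genes), and in elf3-1 elf3-2 0, 14 and 40 (0.0865%, 4.04% and 8.19%), with 18 and 7 at an unadjusted p below 0.05 at ZT6.

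**Figure D3:**
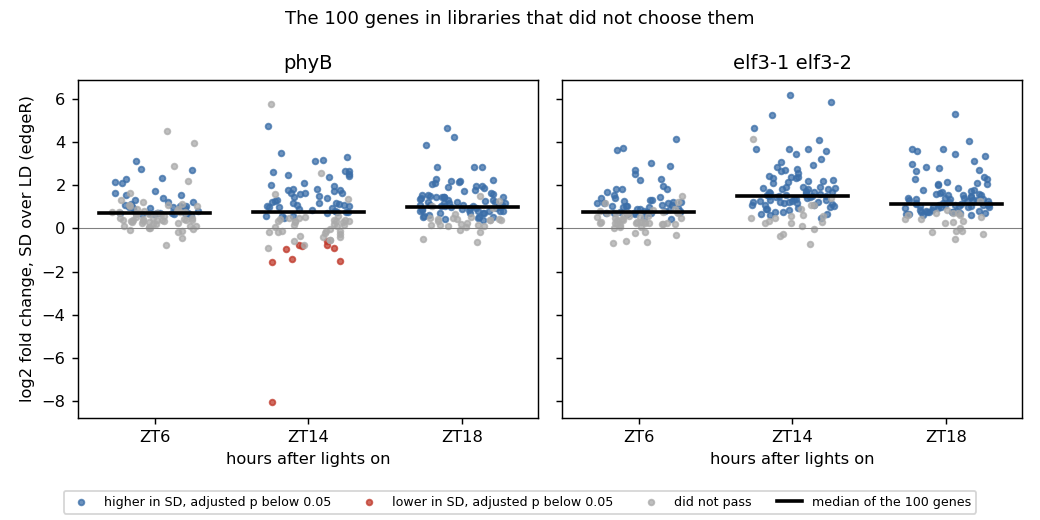
Log2 fold change of SD over LD (edgeR) of the 100 genes in phyB (left) and elf3-1 elf3-2 (right) at ZT6, ZT14 and ZT18, without the 17 libraries set aside; points are genes, coloured by whether the adjusted p was below 0.05, and the black bar is their median. The genes lower in SD that passed the test, 10 in all, are in phyB at ZT14.

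Both mutants called the same 80 genes higher on the average, which is 97.6% of the 82 in phyB and 87.0% of the 92 in elf3-1 elf3-2; 6 genes passed in neither. Over all genes the shared calls were 78.7% of those higher in phyB and 60.2% of those higher in elf3-1 elf3-2. At all 3 times 18 genes rose in SD in phyB and 42 in elf3-1 elf3-2, and 14 did so in both, against 0.626%, 2.45% and 0.284% of all genes. These 14 include Os12g0438600, Os01g0368900, and CIPK14 and CIPK15, which encode kinases that pair with calcium sensors of the calcineurin B-like family.

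CIPK14 (Os12g0113500) had 18.6 and 18.8 TPM in phyB SD at ZT6 against 8.43 and 7.16 TPM in phyB LD, and 36.8, 33.0 and 27.4 TPM in phyB SD at ZT18 against 7.23, 8.13 and 6.99 TPM in LD. In elf3-1 elf3-2 it had 26.1, 36.4 and 29.6 TPM in SD at ZT18 against 8.27, 7.82 and 7.29 TPM in LD. The SD libraries stood above the LD libraries with no overlap in each case. So did 19.4% of all genes over the floor in phyB at ZT6, 18.1% in phyB at ZT18 and 18.5% in elf3-1 elf3-2 at ZT18. WT at ZT18 had 29.2, 24.7 and 26.4 TPM of CIPK14 in SD against 8.81, 7.59 and 6.58 TPM in LD. CIPK14 rose by 1.46 on the log2 scale in phyB (SE 0.10, edgeR adjusted p = 1.44e-14) and by 1.75 in elf3-1 elf3-2 (SE 0.10, adjusted p = 6.85e-17), averaged over the 3 times. CIPK15 (Os11g0113700) rose by 1.72 in phyB and by 1.76 in elf3-1 elf3-2 (SE 0.15 and 0.13). CIPK14 and CIPK15 are near-identical copies in the rice genome, and how the counting split reads between them is uncertain.

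Os12g0438600 had 74.1 to 92.0 TPM in phyB SD at ZT18 against 3.30 to 5.60 TPM in phyB LD, and 96.0 to 121 TPM in elf3-1 elf3-2 SD against 2.02 to 3.42 TPM in LD. Its average change was 3.15 in phyB (SE 0.16, edgeR adjusted p = 1.35e-17) and 4.71 in elf3-1 elf3-2 (SE 0.16, adjusted p = 1.03e-22). Os01g0368900 changed by 3.65 in phyB (SE 0.24) and 4.51 in elf3-1 elf3-2 (SE 0.30), with 27.6 to 33.0 TPM in phyB SD at ZT18 against 1.97 to 2.31 TPM in phyB LD.

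At ZT14 the 2 mutants parted. On a log2(TPM + 1) scale the median of the 100 genes in a library averaged 4.67 in phyB SD against 3.69 in phyB LD, 5.12 in elf3-1 elf3-2 SD against 3.70 in LD, and 5.24 in WT SD against 3.24 in WT LD. The change in SD was smaller in phyB than in elf3-1 elf3-2 for 42 genes and larger for 2 at this time (edgeR test of the difference, adjusted p below 0.05), against 6.7% and 4.82% of all genes. At ZT6 the difference was smaller in phyB for 2 genes and larger for 1 (0.803% and 0.495% of all genes), and at ZT18 smaller for 13 and larger for 3 (2.55% and 1.80%). Averaged over the 3 times it was smaller for 29 genes and larger for 1, against 4.33% and 2.24% of all genes, and 23 of the 29 still passed as higher in SD in phyB. The genes with the larger change at ZT14 were Os10g0396300 and Os10g0450900, named after their values were seen. The tests at single times were added after the data were seen. Under all 74 labels no gene of the 100 passed by edgeR in the average (1 smaller and 3 larger at an unadjusted p below 0.05) or at ZT14 (0 smaller and 2 larger at an unadjusted p below 0.05), so these differences rest on the libraries kept. Leaving out a replicate gave 15 (without replicate 3) to 28 smaller in the average, and 22 to 26 smaller and 0 larger at ZT14. Without those 17, DESeq2 gave 32 smaller and 2 larger, and limma 30 and 1 with 1 TPM added.

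**Figure D4:**
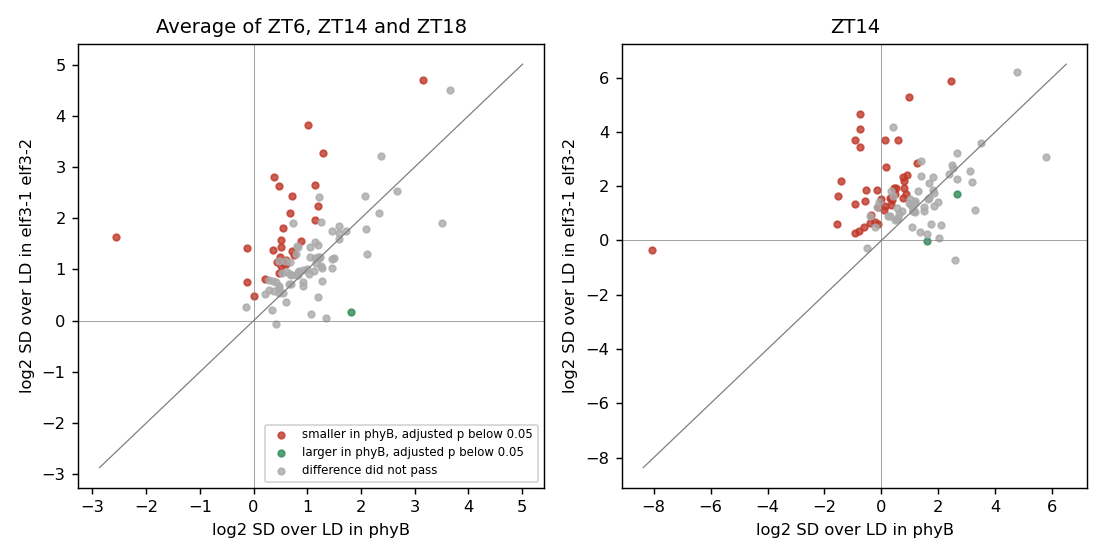
Log2 change of SD over LD (edgeR) in phyB (horizontal) against elf3-1 elf3-2 (vertical) for the 100 genes, averaged over 3 times (left) and at ZT14 (right); the grey diagonal marks equal change, and colour marks the test of the difference. In the average 29 genes differed with the smaller change in phyB and 1 with the larger, and at ZT14 42 and 2.

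NiR was among the genes that parted most. At ZT14 it had 141 and 176 TPM in phyB SD against 229 and 250 TPM in phyB LD, and 698 and 884 TPM in elf3-1 elf3-2 SD against 58.4 and 85.1 TPM in LD. SD stood below LD in phyB and above it in elf3-1 elf3-2, with no overlap in either. With 2 libraries a group this is common. At ZT14 25.4% of all genes over the floor had SD wholly below LD in phyB and 51.8% wholly above. In elf3-1 elf3-2 38.1% were wholly below and 36.6% wholly above. At ZT18 phyB had 708, 590 and 571 TPM in SD against 378, 365 and 309 TPM in LD, and elf3-1 elf3-2 had 856, 729 and 738 TPM in SD against 77.4, 74.6 and 79.6 TPM in LD. In SD at ZT18 the phyB libraries thus lay below those of elf3-1 elf3-2, and in LD each phyB library lay above every elf3-1 elf3-2 and WT library of that time.

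On the log2 scale NiR (Os01g0357100) changed in phyB by 1.22 at ZT6 (SE 0.27, edgeR adjusted p = 0.0029), by -0.76 at ZT14 (SE 0.26, adjusted p = 0.0233) and by 0.94 at ZT18 (SE 0.22, adjusted p = 0.000894). In elf3-1 elf3-2 the changes were 0.94, 3.46 and 3.47. Between the mutants NiR was higher in phyB LD than in elf3-1 elf3-2 LD at ZT14 by 1.81 and at ZT18 by 2.15, and lower in phyB SD by 2.41 at ZT14 (log2 change -2.41), all with adjusted p below 0.05 by edgeR, while at ZT18 SD the difference of -0.38 did not pass (adjusted p = 0.186). The averaged difference of the SD change was -2.16 (SE 0.20, adjusted p = 7.53e-09). The phyB library left out at ZT14 SD, which lay nearest to elf3-1 elf3-2 of ZT14 SD over the variable genes, had 881 TPM, and the left-out WT library, which lay nearest to phyB of ZT14 SD, had 228 TPM. The ZT14 fall of NiR in phyB is drawn from the 2 libraries kept. With all 74 libraries the change was 0.92 there and did not pass.

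**Figure D5:**
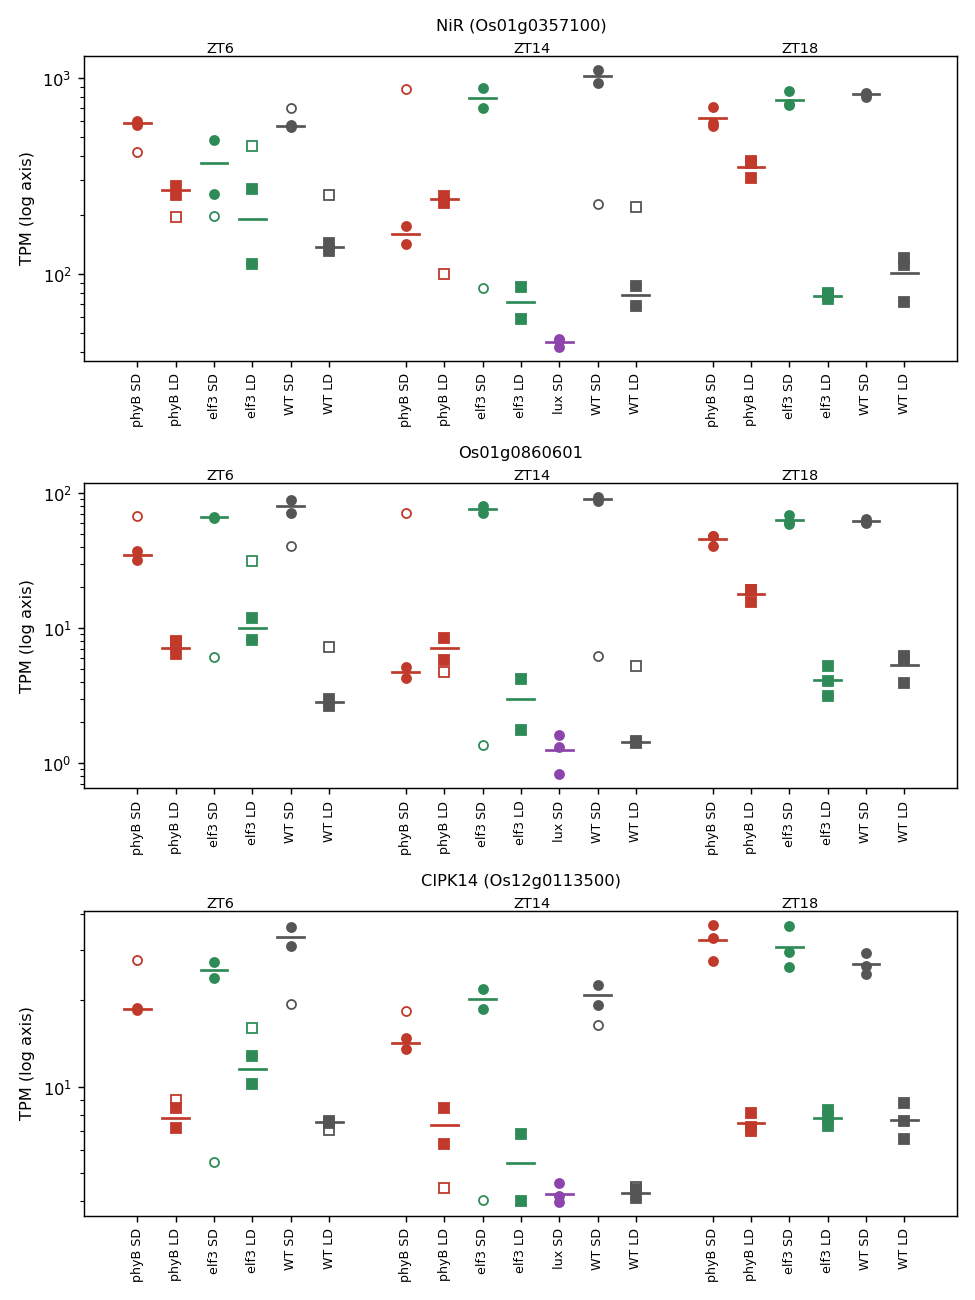
TPM on a log axis of NiR, Os01g0860601 and CIPK14 in each library at ZT6, ZT14 and ZT18 (elf3 stands for elf3-1 elf3-2). Circles are SD and squares LD, open symbols are the libraries set aside, and bars are means of the kept libraries. NiR in phyB at ZT14 has SD below LD (141 and 176 against 229 and 250 TPM), and CIPK14 has SD above LD in each kept mutant pair of groups.

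Os01g0357500, the neighbour of NiR, gave a like order of groups at a lower level. It had 2.97 and 3.81 TPM in phyB SD at ZT14 against 5.63 and 6.04 TPM in LD, and 18.8 and 23.0 TPM in elf3-1 elf3-2 SD against 1.10 and 2.12 TPM in LD. Its change at ZT14 was -0.92 in phyB (edgeR adjusted p = 0.0629) and 3.70 in elf3-1 elf3-2. The averaged difference between the mutants was -2.44 (SE 0.28, edgeR adjusted p = 1.9e-07). The library kit is a directional one, and whether the counts used strand is not given in the sources used here.

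Os01g0860601 had 4.25 and 5.16 TPM in phyB SD at ZT14 against 5.81 and 8.38 TPM in LD, and 71.5 and 79.4 TPM in elf3-1 elf3-2 SD against 1.77 and 4.22 TPM in LD. In phyB at ZT6 and ZT18 it was again clearly higher in SD, with 37.3 and 31.8 TPM in SD against 6.45 and 7.88 TPM in LD at ZT6. Its change in phyB was 2.33 at ZT6, -0.75 at ZT14 (edgeR adjusted p = 0.0354) and 1.47 at ZT18, and the averaged difference from elf3-1 elf3-2 was -2.79 (SE 0.19, adjusted p = 7e-13). The ZT14 change turned to 2.02 with all 74 libraries and did not pass.

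Of the 10 genes that fell in SD in phyB at ZT14, 7 rose in SD in phyB at ZT6, 8 at ZT18, and 6 rose in elf3-1 elf3-2 at ZT14, against 5.1%, 14.2% and 4.84% of all 4710 genes that fell there. Under all 74 labels 1 of the 100 was called lower in SD in phyB at ZT14, so the count of 10 rests on the libraries kept. The largest fall was that of Os02g0770800, with 0.195 and 0.0764 TPM in phyB SD against 29.5 and 35.6 TPM in LD (log2 change -8.07, SE 0.56, adjusted p = 3.72e-14 by edgeR). In elf3-1 elf3-2 this gene had 9.22 and 10.9 TPM in SD at ZT14 against 17.6 and 8.36 TPM in LD, which overlap, and 14.1 and 12.9 TPM in WT SD against 4.68 and 6.69 TPM in WT LD. Its averaged change was -2.57 in phyB and 1.64 in elf3-1 elf3-2, a difference of -4.21 (SE 0.34, adjusted p = 1.52e-10 by edgeR). It is the gene of the 100 that was called lower on average in phyB. Os01g0631200, also among the 10, changed at ZT14 by -1.53 in phyB (SE 0.28, adjusted p = 2.51e-05 by edgeR) and by 1.63 in elf3-1 elf3-2.

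Further genes with a smaller change in phyB were Os06g0473000 (average change 1.30 in phyB and 3.27 in elf3-1 elf3-2), Os03g0609500 (1.14 and 2.64) and Os02g0765900 (0.54 and 1.81). The gene with the larger change in phyB was Os03g0103200. It had 628 and 329 TPM in phyB SD at ZT6 against 52.4 and 60.9 TPM in phyB LD, and 637 and 699 TPM in elf3-1 elf3-2 SD against 702 and 259 TPM in LD. The phyB LD libraries were the low ones, and the others overlapped. Its averaged change was 1.82 in phyB (SE 0.18) and 0.18 in elf3-1 elf3-2 (SE 0.17, adjusted p = 0.451), with a difference of 1.65 (SE 0.25, adjusted p = 3.64e-05 by edgeR).

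Apart from day length, more of the genes were lower in phyB than in elf3-1 elf3-2 than were higher. Averaged over the 6 conditions 47 of the 100 were lower and 26 higher in phyB, against 25.5% and 26.5% of all genes, so the count of higher ones is at the share of all genes. It was 14 without replicate 2, and under all 74 labels 22 were lower and 11 higher. Os04g0659300 gave the clearest case, with 1.22 to 2.97 TPM in phyB SD at ZT18 against 60.3 to 83.3 TPM in elf3-1 elf3-2 SD, and 56.8 to 78.6 TPM in WT SD. Averaged over conditions it was lower in phyB by a log2 change of -4.64 (SE 0.20, edgeR adjusted p = 3.53e-21). Os02g0765900 stood highest in elf3-1 elf3-2, with 8.19 to 12.8 TPM in phyB SD at ZT18, 89.3 to 116 TPM in elf3-1 elf3-2 SD and 12.97 to 16.3 TPM in WT SD.

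In lux the 100 genes were mostly low at the only time sampled. At ZT14 SD the median of the 100 genes averaged 3.88 on the log2(TPM + 1) scale in lux, against 4.67 in phyB, 5.12 in elf3-1 elf3-2 and 5.24 in WT. Lower in lux than in elf3-1 elf3-2 were 76 genes and higher 10 (29.5% and 34.9% of all genes), with a median log2 change of -1.99. Against phyB, a comparison added after the data were seen, 63 were lower and 18 higher (28.4% and 33.8% of all genes), and 59 were lower in both, against 22.6% of all genes. Under all 74 labels 59 were lower than in phyB and 4 higher. NiR had 42.4, 46.0 and 46.6 TPM in lux, which is below every kept phyB and elf3-1 elf3-2 library of ZT14 SD, and was lower than in elf3-1 elf3-2 by a log2 change of -4.32 (SE 0.26, edgeR adjusted p = 5.27e-17). Os01g0860601 had 0.828, 1.61 and 1.31 TPM in lux, and CIPK14 had 4.61, 4.15 and 3.98 TPM.

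Markers of root and meristem stood high in the lux libraries. LSI1, a silicon transporter of roots, had 378 to 511 TPM in lux and 6.83 to 23.0 TPM in all other libraries, RCc3, a root protein, had 162 to 200 TPM in lux and was at 0 elsewhere, and the meristem gene OSH1 had 5.95 to 8.13 TPM in lux and at most 0.037 TPM elsewhere. CAB1R, a chlorophyll a-b binding protein of leaves, had 514 to 614 TPM in lux and 3.51 to 6838 TPM elsewhere. The ranges elsewhere span all times and both day lengths, so that of CAB1R does not show how lux stands at ZT14 SD. Of these 4 markers 3 were thus higher in lux than in any other library, and their part in the difference between lux and the other mutants was not tested. In such bulk samples fewer cells of a type and less RNA per cell cannot be told apart. GLP1 (Os08g0460000), a germin-like protein and a member of the 100, had 345, 645 and 698 TPM in lux against 7.72 and 4.67 TPM in elf3-1 elf3-2 at ZT14 SD.

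Some members of known name changed less evenly. RAB21 (Os11g0454300), a dehydrin also called RAB16A, and LEA3-1 (Os05g0542500), a late embryogenesis abundant protein, are both made in drying tissue. RAB21 had 5.39 and 4.83 TPM in phyB SD at ZT14 against 0.181 and 0.652 TPM in LD, and rose there by 3.30 (SE 1.00, edgeR adjusted p = 0.00865); its average changes were 1.22 in phyB (adjusted p = 0.133) and 1.22 in elf3-1 elf3-2 (adjusted p = 0.0026). LEA3-1 passed in neither mutant on average, with changes of 1.07 in phyB (adjusted p = 0.279) and 0.14 in elf3-1 elf3-2 (adjusted p = 0.749), and it was lower in phyB than in elf3-1 elf3-2 by a log2 change of -3.50 (SE 0.30, adjusted p = 1.64e-12). APX8, an ascorbate peroxidase of the chloroplast, was abundant and moved little, by 0.29 in phyB (SE 0.08, adjusted p = 0.00386) and 0.59 in elf3-1 elf3-2 (SE 0.08, adjusted p = 1.26e-07). GLP1 rose by 2.37 in phyB (SE 0.82, adjusted p = 0.0237) and by 3.21 in elf3-1 elf3-2 (SE 0.89, adjusted p = 0.00354), with libraries of a group far apart, such as 56.2, 63.4 and 17.6 TPM in phyB SD at ZT18.

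Set beside NiR, the other genes of a list of 14 for nitrate uptake and nitrogen assimilation did not share its course in WT as a whole. Of the 14, NiR alone is among the 100, and 9 were over the TPM floor. The list was written by hand. Members of the 100 without a symbol, Os02g0770800 among them, were not checked for other genes of nitrogen assimilation. NiR is thus the only listed gene among the 100, which does not show that it is the only such gene there. NIA1 (Os08g0468100), a nitrate reductase, and GS2 (Os04g0659100), the chloroplast glutamine synthetase, also had an SD mean above LD at all 6 times in WT, but with a smallest log2 ratio of 0.09 and 0.03. GLN1-1 (Os02g0735200), a cytosolic glutamine synthetase, had an SD mean below LD at all 6.

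In the mutants, list members higher in SD on average were 3 of 14 in phyB (GLN1-2, GS2 and NiR) and 6 in elf3-1 elf3-2 (Fd-GOGAT, GLT2, GS2, NAR2.1, NIA1 and NiR), and 4 were lower in each (AMT1-1, GLN1-1, NIA1 and NIGT1 in phyB, AMT1-1, GLN1-1, NIGT1 and NRT2.3 in elf3-1 elf3-2). Of all genes 16.7% were higher and 17.1% lower in phyB, and 21.8% higher and 20.9% lower in elf3-1 elf3-2. The median log2 change of the list was -0.38 in phyB and 0.31 in elf3-1 elf3-2. At ZT14 in phyB 1 was higher and 6 lower, NIA1 among the 6, against 17.8% and 16.3% of all genes.

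NIA1 had 9.31 and 11.4 TPM in phyB SD at ZT14 against 155 and 170 TPM in LD, and 246 and 306 TPM in elf3-1 elf3-2 SD against 151 and 135 TPM in LD. The SD libraries of phyB were the low ones. At ZT18 it was higher in SD in both mutants, with 104 to 122 TPM in phyB SD against 19.8 to 24.03 TPM in LD, and 391 to 428 TPM in elf3-1 elf3-2 SD against 65.7 to 98.4 TPM in LD. NIA1 changed by -4.28 in phyB at ZT14 (SE 0.20, edgeR adjusted p = 1.14e-19), by 2.51 at ZT18 (SE 0.15, adjusted p = 1.64e-15) and by -0.42 on average, which turned to 0.79 with all 74 libraries. The averaged difference from elf3-1 elf3-2 was -1.81 (SE 0.13, adjusted p = 5.15e-12). Of the left-out libraries at ZT14 SD, the phyB one, nearest to elf3-1 elf3-2, had 239 TPM of NIA1, and the WT one, nearest to phyB, had 8.72 TPM.

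Glutamine synthetase and glutamate synthase of the chloroplast moved less. GS2 changed on average by 0.31 in phyB (SE 0.06) and 0.66 in elf3-1 elf3-2 (SE 0.06), with a difference of -0.35 (edgeR adjusted p = 0.00887), and Fd-GOGAT (Os07g0658400) by 0.12 in phyB (adjusted p = 0.179) and 0.61 in elf3-1 elf3-2 (SE 0.07), with a difference of -0.49 (adjusted p = 0.000833).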

How the data were processed

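Gene counts and TPM of 74 libraries were used as deposited. Per the labels' protocols, total RNA was taken with a plant RNeasy kit and libraries were made with NEBNext Ultra II Directional, and per the submitters' processing notes HISAT2 and StringTie were run on IRGSP-1.0. The deposited counts are whole read counts per gene with no normalization, and the deposited TPM are the authors' values scaled to gene length and library, with sums of 0.985 to 0.997 M. Of 75 columns in each table, 1 was not used, because its counts are the mean of 2 other columns within 0.5. The WT columns headed ZT00 were matched to the label ZT24.

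The 100 genes and the lists were chosen with earlier results of these data known, as was the setting aside of 17 libraries. For each library the mean distance to the kept libraries of each group was checked over the 3000 most variable genes. The 17 libraries were left out of the groups measured against. Counts of 57 libraries entered 1 model in edgeR 4.0.16 (R 4.3.3), which had a term for each group and 32 residual degrees of freedom. Library sizes were scaled by TMM (0.789 to 1.23), filterByExpr left 28905 genes, all of the 100 among them, and took out 8944, and robust quasi-likelihood tests were used (glmQLFit, glmQLFTest). All adjusted p are Benjamini-Hochberg over all genes tested in a comparison, with 0.05 as threshold, and SE are of the log2 change. Mutants are set beside WT as values only, because WT libraries chose the genes. The edgeR procedure was also run on simulated counts with the same spread for every gene and changes placed in phyB ZT18 SD alone. That run placed no changes at ZT6 or ZT14 and did not cover tests of a difference between mutants. DESeq2 1.42.0, limma 3.58.1 on log2(TPM + 1) and log2(TPM + 0.1), RLE factors, no filter, all 74 libraries, leaving out each replicate and a replicate block were run as alternatives.

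Genes were named by rule where they are the 10 of highest rank, 3 on each side of the limit or members with a symbol. The nitrogen genes came from the list written by hand. The 4 further members Os01g0368900, Os03g0103200, Os02g0770800 and Os06g0473000 were picked by hand, with results of these data known. Symbols were written by hand for known identifiers and kept where the RefSeq gene table (ASM3414082v1) has the symbol on the same chromosome; for NiR, RCc3, ELF3-2 and LUX that table has none, and the pairing rests on general knowledge or the labels. Products, promoters and protein sequences were not used here, so the genes were not sorted into classes and no motif was searched. Replicate numbers were not used as pairs.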

Additional observations from a re-analysis of the deposited data

Results flagged for a closer look

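The change from LD to SD differed between phyB and elf3-1 elf3-2 by the edgeR test of the difference for 29 genes with the smaller and 1 gene with the larger change in phyB on the average of 3 times. By time it was smaller in phyB for 2 genes and larger for 1 at ZT6, for 42 and 2 at ZT14, and for 13 and 3 at ZT18. The named genes among them, with the phyB change minus the elf3-1 elf3-2 change on the log2 scale, were Os01g0860601 (-2.79), Os12g0438600 (-1.55), NiR (-2.16), Os02g0765900 (-1.27), Os03g0609500 (-1.51), Os01g0357500 (-2.44), Os01g0631200 (-1.55), Os02g0770800 (-4.21), Os06g0473000 (-1.97) and Os03g0103200 (1.65). Outside the 100 genes the difference also passed for NIA1 (-1.81), GS2 (-0.35) and Fd-GOGAT (-0.49). None of the 100 passed in the average with all 74 libraries under their labels.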

How the results depend on the processing

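Which libraries were used changed the counts most. With all 36 WT libraries, 30 of the 100 genes would again be among the first 100, against 73 to 85 when a replicate number is left out. Under all 74 labels, genes higher in SD numbered 0 (ZT6) and 21 (ZT18) in phyB, and 0 (ZT6), 14 (ZT14), 40 (ZT18) and 52 (average) in elf3-1 elf3-2, and the averaged difference was called for 0 genes in either direction; at an unadjusted p below 0.05 the ZT6 counts were 18 in phyB and 7 in elf3-1 elf3-2. Higher in phyB than in elf3-1 elf3-2 were then 11. Fitting only the groups compared left 0 in elf3-1 elf3-2 at ZT6 (49 at an unadjusted p below 0.05; DESeq2 on all groups gave 60). The cause was not tested. The larger averaged change in phyB was called for 2 genes by DESeq2 and with a replicate block. Same-numbered SD and LD libraries correlated in their deviations from the group means above 0 in 13 of 14 pairs. The correlations ran from 0.19 to 0.51 in elf3-1 elf3-2 at ZT18 and from -0.13 to 0.24 in phyB at ZT18. In groups of 2 libraries the deviations mirror each other, so replicates 2 and 3 give the same value. It was 0.28 at ZT6 and 0.20 at ZT14 in phyB, and 0.32 and 0.086 in elf3-1 elf3-2. Pairing by number is thus not settled, and a replicate block gave 84 higher in elf3-1 elf3-2 at ZT18 in place of 81.

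Leaving out a replicate gave 9 each time (phyB ZT6), 33 to 36 (phyB ZT14), 31 to 45 (elf3-1 elf3-2 ZT6), 15 to 28 (smaller averaged change in phyB), 22 to 26 (smaller change in phyB at ZT14) and 14 to 29 (higher in phyB). On the TPM scale with 1 TPM added the median of all genes shifted by 0.12 in phyB at ZT14, -0.096 in phyB at ZT18, -0.11 in elf3-1 elf3-2 at ZT18 and 0.15 for lux over elf3-1 elf3-2, and the share of calls that were higher moved by over 10 points (70.0% in phyB at ZT14 against 52.1%, for example), while the 100 genes gave 58 higher and 8 lower there.

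Of 929 results of named genes under alternatives, 14 turned sign. Keeping all 74, these were Os01g0631200 (0.28) and NIA1 (0.79) on average in phyB, LEA3-1 (-0.10) and Os03g0103200 (-0.16) on average in elf3-1 elf3-2, and at ZT14 in phyB Os01g0860601 (2.02), NiR (0.92), Os02g0765900 (1.44), Os01g0357500 (0.83), GS2 (0.19) and Fd-GOGAT (0.073). Leaving out a replicate gave, in elf3-1 elf3-2, average changes of -0.14 to 0.67 for LEA3-1 and -0.053 to 0.50 for Os03g0103200, and -0.89 to 0.40 at ZT14 for Os02g0770800. Groups of 2 libraries limit all values at ZT6 and ZT14.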
